A study of Mus musculus with 4 samples.

Results

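Serpins are a family of protease inhibitors, and 10 mouse serpin genes were followed here among the 27179 genes of the count table: Serpina3f, Serpina3g, Serpina3h and Serpina3i of the Serpina3 cluster on chromosome 12, Serpinb1a, Serpinb6a, Serpinb6b and Serpinb9 of the intracellular clade B on chromosome 13, and the genes of otherwise secreted serpins, Serpinc1 and Serpinf1. The genes were selected on measured values of the WT against P65KO contrast in these same libraries, so their differences in that contrast are described below without a test. RNA was sequenced from CD4+Foxp3+ Treg cells, the regulatory T cells that restrain immune responses, of C57BL/6 mice at steady state. Each library came from spleen together with peripheral lymph nodes. The 2 WT libraries carry no stated modification, and the 2 P65KO libraries are described as deficient in RelA (p65), which binds DNA as part of NF-kB transcription factor dimers. The allele, any Cre driver, the age and sex of the mice, the number of mice in a library and the sort gates were not given in the sources used here. No label ties a replicate to a mouse of its own, so the spread between replicates may be technical.

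An inhibitory serpin presents a reactive loop that its target protease cleaves, after which the serpin changes shape and traps the protease in a covalent complex. Clade A serpins are mostly secreted, whereas clade B serpins lack a classical signal peptide and act in the cytoplasm and nucleus, where they protect a cell from proteases that leak from its own granules and lysosomes. Lymphocytes carry such proteases in the granzymes and cathepsins, and several mouse serpins of lymphocytes are known as inhibitors of these enzymes.

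The libraries held 4513863 to 4624230 counts with 14025 to 14392 genes detected. Rela had 875 and 806 counts in the WT libraries against 820 and 909 in the P65KO-labelled ones, so the level over the whole gene was not lower under the knockout label. A sum over the whole gene does not check a deletion of part of it, and the genotype is given below as labelled. Xist had 494 and 608 counts in WT against 0 and 2 in the P65KO-labelled libraries, and Ddx3y, Eif2s3y and Kdm5d had 0 in WT. Of the 5 sex-linked genes listed, Xist was lower and the other 4, with Uty among them, were higher under the P65KO label by the test. The genotype label and these sex-linked signals therefore cannot be told apart in any comparison below. All 6 Treg markers were detected in all 4 libraries, with 1724 to 2385 counts of Foxp3 and 4371 to 5313 of Cd4. Of these markers, Ikzf2 (2038 and 2251 counts in WT, 582 and 751 under the P65KO label) and Ctla4 (1218 and 1271 against 693 and 597) fell, Il2ra (2544 and 2506 against 3017 and 3618) rose, and Cd3e, Cd4 and Foxp3 did not pass the edgeR test described below. Myeloid and dendritic markers summed to 129 and 190 CPM (counts scaled to the TMM-adjusted library total) in WT against 957 and 335 in the P65KO-labelled libraries, with 6 of 7 tested markers higher by the test and none of the 10 listed markers at 0 throughout. Most of each sum came from Lyz2, with 90.9 and 141 CPM in WT and 635 and 193 CPM under the P65KO label. Erythroid and platelet markers summed to 14.1 and 20.2 CPM against 70.8 and 128, with both tested markers higher and Pf4 at 0. Markers of CD8 T and NK cells ran from 57.5 to 69.2 CPM over the 4 libraries, with 1 of 5 tested higher and 1 lower. In bulk RNA, fewer cells of a type and less RNA per cell cannot be told apart.

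The Serpina3 promoters are shown because 3 neighbouring, related genes carry differing versions of the same stretch. RefSeq gives a window of 250 bases before to 50 after the start of 8 of the 10 genes (GRCm38.p6), in 10 windows in all. The windows were searched on both strands for the 10-base NF-kB consensus motif. It was found in 2 of the 10 windows, those of Serpina3g and Serpina3i, and in 8.46% of all 32851 promoter windows. Below, the stretch of the Serpina3g motif is set beside the aligned stretches of Serpina3f and Serpina3i, all on the + strand, with the 10 bases of the motif or its aligned counterpart in capitals.
Serpina3g, chr12:104236052-104236081: agaactgttaGGGGGTTTCCgaacaggaaa
Serpina3f, chr12:104214361-104214390: ataacagttaGGGGATTGCCcagcaggaaa
Serpina3i, chr12:104262958-104262987: agaacagtaaGGGGTTTTCCcagcagggaa
Counted from 1 at the first capital, with the base of Serpina3g first, Serpina3f differed by G5A and T8G and did not match the motif. Serpina3i differed by G5T and matched it. The motif began at position -85 relative to the start used for the Serpina3g window and at -154 relative to that used for the Serpina3i window. The Serpina3i window (chr12:104262872-104263171) was built on a start downstream of the gene start at 104263045 given below. The Serpina3i motif began at chr12:104262968, so it lay nearer to that gene start than -154 says. Over their aligned bases, the promoter windows of Serpina3g and Serpina3f were identical at 169 of 202 bases (83.7%), and those of Serpina3g and Serpina3i at 187 of 229 (81.7%). These matches describe letters in a window. They are not sites shown to be bound, and the 3 genes ranged from abundant to undetected, as follows.

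Serpina3g, also known as Spi2A, is an intracellular inhibitor of lysosomal cysteine cathepsins, among them cathepsin B (Entrez 20715; chr12:104236147-104241939, GRCm38). It had 956 and 1027 counts in the WT libraries against 114 and 76 in the P65KO-labelled ones. Both WT libraries stood far above both P65KO-labelled libraries. The mean level was 214 ± 9.55 CPM (SD, n = 2) in WT and 21.0 ± 5.88 CPM in P65KO-labelled cells, a difference of -3.35 ± 0.14 on the log2 scale (SE) or 10.2-fold lower. Per length, Serpina3g was the most abundant of the 10 genes in WT, with 109 and 114 RPKM (reads scaled to gene length and library total) as the authors deposited them on a log2 scale, and 12.8 and 8.49 RPKM in the P65KO-labelled libraries.

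Serpina3f is a neighbouring antichymotrypsin-like gene (Entrez 238393; chr12:104214544-104221129). It had 75 counts in each WT library and 2 in each P65KO-labelled library. The mean level was 16.2 ± 0.0981 CPM (SD, n = 2) in WT and 0.442 ± 0.00128 CPM in P65KO-labelled cells, 34.6-fold lower and -5.11 ± 0.41 on the log2 scale (SE). With 4 counts in all on the P65KO side, the exact 95% interval of the count ratio of WT over P65KO-labelled ran from 14.0 to 136, which covers counting error only. Relative to its neighbour, Serpina3f had 7.85 and 7.30 counts per 100 counts of Serpina3g in WT and 1.75 and 2.63 in the P65KO-labelled libraries. The share of Serpina3f beside Serpina3g was thus lower in both P65KO-labelled libraries than in both WT libraries, over very few counts.

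Serpina3h, which the annotation calls a transcribed pseudogene (Entrez 546546; chr12:104247896-104254405), had 1 and 2 counts in WT and 0 in both P65KO-labelled libraries. Serpina3i (Entrez 628900; chr12:104263045-104269509) had 0 counts in all 4 libraries. Both genes lay at or under a floor of 3 counts, which corresponds to 0.646 to 0.664 CPM per library, and no fold is given for them. The Serpina3i window that matched the motif was therefore that of a gene without a count, not detectable at this depth.

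Reads of the Serpina3 copies could be shared. The longest coding transcripts of Serpina3g and Serpina3f were 90.4% identical over 1727 aligned bases, and those of Serpina3g and Serpina3i were 89.2% identical over 1724. The transcript of Serpina3h was 94.3% identical to that of Serpina3g over 835 bases. Identity was broken by scattered differences, so that 10.6% of the 50-base stretches of Serpina3f and 15.5% of those of Serpina3g occurred exactly in another gene, falling to 3.40% and 3.49% of 100-base stretches. The read length and the handling of reads with several matches were not given in the sources used here, and the counts of the 4 copies are uncertain to that extent. The low counts of Serpina3h and Serpina3i set a direct limit on how many reads were assigned to them, at most 2 in any library.

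**Figure D1:**
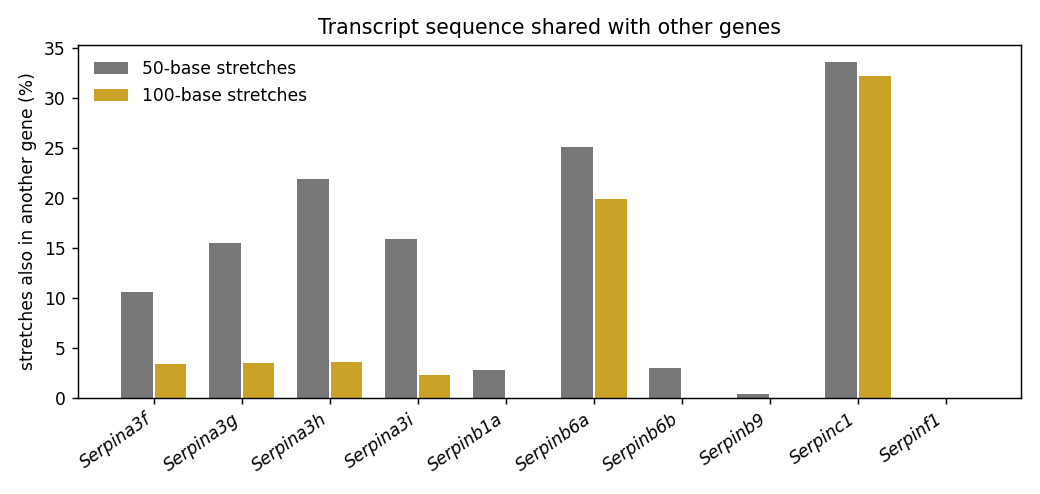
Share of exact 50-base and 100-base transcript stretches of each serpin gene that also occur in another gene, in percent. The Serpina3 copies share 10.6% to 21.9% of their 50-base stretches, while the larger 100-base shares of Serpinc1 and Serpinb6a come mainly from overlapping genes. The transcripts are those of GENCODE M21, whose exons are not all among those counted for Serpinc1 and Serpinb6a.

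Among the clade B serpins, Serpinb6a, an inhibitor of cathepsin G and thrombin, was the most abundant (Entrez 20719; chr13:33917918-34002794). It had 315 and 354 counts in the WT libraries against 155 and 163 in the P65KO-labelled ones. Replicates lay close together and the groups were well apart. The level was 72.3 ± 5.52 CPM (SD, n = 2) in WT and 35.1 ± 1.35 CPM in P65KO-labelled cells, 2.06-fold lower and -1.04 ± 0.12 on the log2 scale (SE).

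Serpinb6b is a close relative known in mouse as an inhibitor of granzyme A (Entrez 20708; chr13:32956811-32979067). It had 208 and 228 counts in the WT libraries against 146 and 116 in the P65KO-labelled ones. The lower WT library was above the higher P65KO-labelled library. The level was 47.1 ± 2.77 CPM (SD, n = 2) in WT and 28.9 ± 4.60 CPM in P65KO-labelled cells, 1.63-fold lower and -0.70 ± 0.14 on the log2 scale (SE).

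Serpinb9, known as Spi6, inhibits granzyme B (Entrez 20723; chr13:32997061-33017955). It had 244 and 299 counts in the WT libraries against 179 and 171 in the P65KO-labelled ones. The groups did not overlap, and the WT libraries differed more from each other than the P65KO-labelled ones. The level was 58.6 ± 8.05 CPM (SD, n = 2) in WT and 38.7 ± 1.14 CPM in P65KO-labelled cells, 1.52-fold lower and -0.60 ± 0.13 on the log2 scale (SE).

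Serpinb1a inhibits neutrophil elastase, proteinase 3 and cathepsin G (Entrez 66222; chr13:32842092-32853206). It had 11 and 24 counts in the WT libraries against 20 and 4 in the P65KO-labelled ones. The groups overlapped, with P65KO-labelled replicate 1 between the WT libraries. The level was 3.78 ± 1.96 CPM (SD, n = 2) in WT and 2.65 ± 2.49 CPM in P65KO-labelled cells, -0.51 ± 0.61 on the log2 scale (SE). The sign of the difference turned to 0.15 without WT replicate 2 and to 0.22 without P65KO-labelled replicate 2, and it was -2.06 without P65KO-labelled replicate 1. Neutrophil markers summed to 31.0 and 27.3 CPM in WT replicates 1 and 2 and to 110 and 17.5 CPM in P65KO-labelled replicates 1 and 2. The P65KO-labelled library with more Serpinb1a thus had more neutrophil marker RNA, whereas the WT library with more Serpinb1a, replicate 2, had less. The list held 7 markers, all with at least 1 count, and 0 of the 4 tested passed the edgeR test. The part of neutrophil RNA in the Serpinb1a values was not tested.

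Serpinb6a and Serpinb6b transcripts were 87.4% identical over 1147 aligned bases. For Serpinb6a, 25.1% of 50-base stretches and 19.9% of 100-base stretches occurred in another gene, mostly where its exons overlap Nqo2, 1110046J04Rik and Ripk1 on the opposite strand. The deposited RPKM implied a counted length of 1888 bases for Serpinb6a, whereas its GENCODE transcripts held 5728 distinct 50-base stretches. The counted exons were thus fewer than those of GENCODE and may not hold these overlaps. The strand setting and annotation of the counting were not given in the sources used here. Where counted exons do hold an overlap, reads of these genes and of Serpinb6a cannot be told apart. Nqo2 had 52 and 78 counts in the WT libraries against 74 and 78 in the P65KO-labelled ones, and Ripk1 had 302 and 296 against 354 and 357. Serpinb9 and Serpinb6b shared 0.378% and 2.92% of their 50-base stretches with other genes.

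Serpinc1 encodes antithrombin, the plasma inhibitor of thrombin and of other clotting proteases, made chiefly in liver (Entrez 11905; chr1:160978583-161002543). It had 36 and 44 counts in the WT libraries against 2 and 4 in the P65KO-labelled ones. WT counts were several times higher in every pairing of libraries. The level was 8.64 ± 1.17 CPM (SD, n = 2) in WT and 0.663 ± 0.314 CPM in P65KO-labelled cells, 12.6-fold lower and -3.65 ± 0.48 on the log2 scale (SE). The exact 95% interval of the count ratio of WT over P65KO-labelled ran from 5.73 to 36.6. All 4 hepatocyte markers, Alb, Apoa1, Ttr and Serpina1a, had 0 counts in all 4 libraries. In the GENCODE M21 annotation, exons of Serpinc1 overlap those of Zbtb37 on the opposite strand over 2942 bases, while the RefSeq spans of the genes do not overlap. The deposited RPKM implied a counted length of 2162 bases for Serpinc1. That is shorter than the overlap, so the counted exons did not hold all of it. Zbtb37 had 39 and 56 counts in the WT libraries against 47 and 61 in the P65KO-labelled ones, a level that was not lower there.

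Serpinf1 encodes pigment epithelium-derived factor, a secreted serpin that inhibits no protease and is known for blocking vessel growth (Entrez 20317; chr11:75410029-75422623). It had 13 and 16 counts in the WT libraries against 3 and 0 in the P65KO-labelled ones. The groups did not overlap, at counts near the floor on the P65KO side. The level was 3.13 ± 0.440 CPM (SD, n = 2) in WT and 0.331 ± 0.468 CPM in P65KO-labelled cells, and the count ratio of WT over P65KO-labelled was 9.45 with an exact 95% interval of 2.93 to 48.5. The fitted log2 difference of -3.14 became -2.20 without P65KO-labelled replicate 2 and, with 0 counts left in that group, -6.86 without P65KO-labelled replicate 1, a value set by the prior count. The stromal and endothelial markers Pdgfra, Col3a1 and Pdpn were at 0 in all 4 libraries. Of the 8 listed markers, 5 had counts and 1 was tested, which was higher under the P65KO label. Col1a1 had 8 and 3 counts in WT and 0 and 2 under the P65KO label, and Col1a2 had 1 and 4 against 0 and 0. These collagen counts are too few to be read as a direction of the list. The summed list of 8 markers, at 177 and 142 CPM in WT and 225 and 248 CPM under the P65KO label, came almost wholly from Pecam1, which leukocytes also express. The part of stromal RNA in the Serpinf1 values was not tested.

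**Figure D2:**
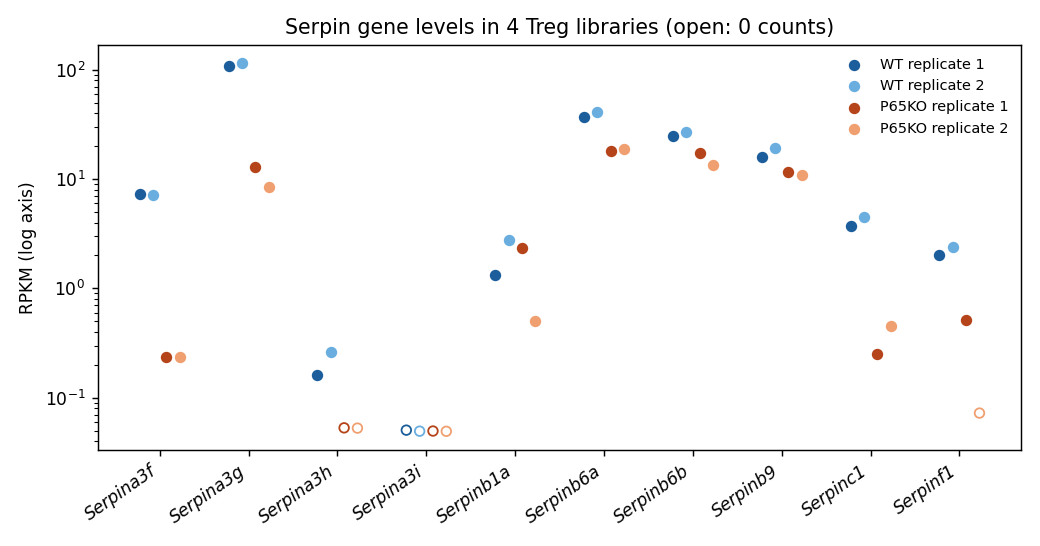
Deposited RPKM of the serpin genes in each library, on a log axis, with the points of WT and P65KO-labelled libraries side by side. Serpina3g stood at 109 and 114 in WT and at 12.8 and 8.49 in the P65KO-labelled libraries, and values of genes with 0 counts come from the 0.5 count that was added before the log.

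Compared per length, the order of the genes differed between the groups. In WT, mean RPKM fell from Serpina3g (112 ± 3.94, SD, n = 2) through Serpinb6a (38.9 ± 2.61), Serpinb6b (25.7 ± 1.27) and Serpinb9 (17.5 ± 2.24) to Serpina3f (7.23 ± 0.110) and Serpinc1 (4.10 ± 0.511). Serpinf1 (2.20 ± 0.278) and Serpinb1a (2.05 ± 1.02) came last among the genes above the floor, and their library values overlapped. In P65KO-labelled cells, Serpinb6a led with 18.3 ± 0.577 RPKM, followed by Serpinb6b with 15.3 ± 2.54, Serpinb9 with 11.2 ± 0.406 and Serpina3g with 10.6 ± 3.03. The library values of Serpinb9 and Serpina3g overlapped there. Serpina3g made up 54.1% and 52.5% of the summed RPKM of the 10 genes in WT and 20.4% and 16.0% in the P65KO-labelled libraries. The 4 clade B genes together summed to 79.1 and 89.2 RPKM in WT and to 48.9 and 43.7 in the P65KO-labelled libraries.

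Over the whole table, 2310 of 11172 tested genes passed an adjusted p of 0.05 in the edgeR quasi-likelihood test with Benjamini-Hochberg adjustment (20.7%), of which 1005 were higher (9.0% of the tested genes) and 1305 lower (11.7%) under the P65KO label. The total was 919 without WT replicate 1 and 916 without WT replicate 2. Of the 10 serpin genes, 8 passed the filter on low counts, Serpina3h and Serpina3i did not, and 7 were among the lower genes. The contrast chose the genes, so nothing is read from that count. Serpina3f, Serpinc1 and Serpinf1 were near or under the floor in the P65KO-labelled libraries and passed the filter through WT. The differences ran from -5.11 for Serpina3f to -0.51 for Serpinb1a. Those of Serpina3f, Serpina3g, Serpinc1 and Serpinf1 were all at or beyond -3.14, and those of the clade B genes lay at -1.04 or nearer to 0.

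**Figure D3:**
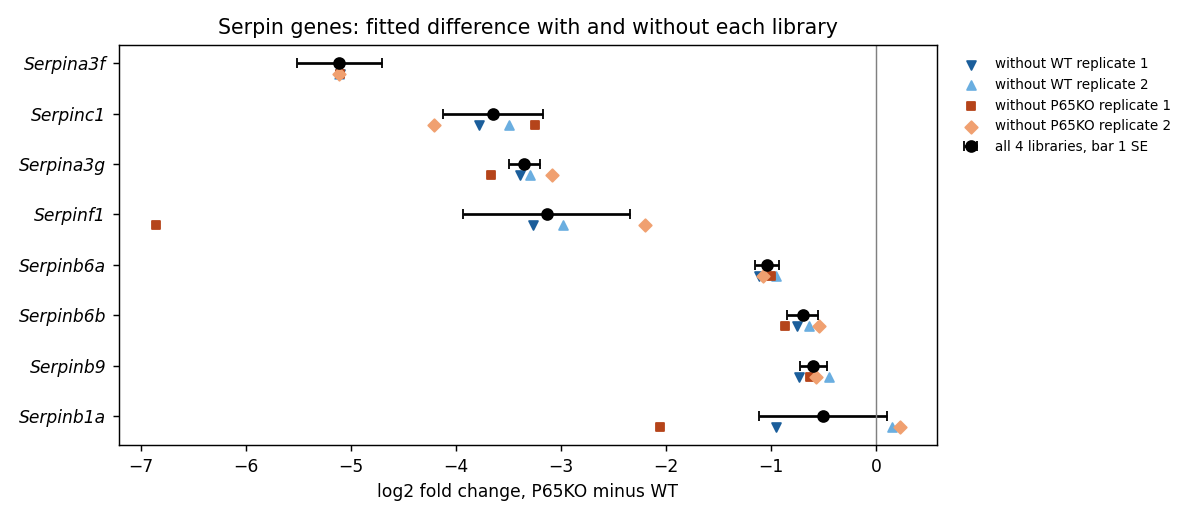
Fitted log2 differences, P65KO-labelled minus WT, of the 8 serpin genes that passed the low-count filter, with all 4 libraries (black, bar 1 SE) and without each library in turn. Serpinb1a lay on both sides of 0, and the point of Serpinf1 at -6.86 has no P65KO-labelled count left.

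The other serpin genes of the table were almost silent. Of 55 further genes, 37 had 0 counts in all 4 libraries and 4 passed the filter, with 1 higher, 1 lower and 2 that did not pass. The median log2 difference of these 4 was 0.48, beside 0.00 over all tested genes. Over all tested genes, 9.0% were called higher and 11.7% lower. This list and those below were chosen with earlier results of these data known, so nothing is read from their counts. Serpina9, known from germinal centre B cells, had 27 and 22 counts in the WT libraries against 2 and 1 in the P65KO-labelled ones. It fell by 3.89 ± 0.60 on the log2 scale (SE, adjusted p of the edgeR quasi-likelihood test with Benjamini-Hochberg adjustment = 0.00062), with a count ratio of 16.0 and an exact 95% interval of 5.15 to 80.1, and was lower in 2 of 2 P65KO-labelled libraries. B cell markers moved alongside, from 49.5 and 52.5 summed CPM in WT to 24.3 and 15.1, with 2 of 2 tested markers (Cd79b and Cd22) lower and Pax5 at 0. Their part in the Serpina9 difference was not tested.

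Serpinb10, a clade B serpin of blood-forming and myeloid cells, had 6 and 7 counts in the WT libraries against 55 and 19 in the P65KO-labelled ones. It rose by 2.52 ± 0.55 on the log2 scale (SE, adjusted p of the edgeR quasi-likelihood test with Benjamini-Hochberg adjustment = 0.00607) and was higher in 2 of 2 P65KO-labelled libraries. The call was lost on leaving out WT replicate 1 (adjusted p = 0.140), WT replicate 2 (0.120) or, under the P65KO label, replicate 1 (0.0613, log2 difference 1.56), and with no filter on low counts (0.120). The library with most Serpinb10, P65KO-labelled replicate 1, was the one with most myeloid marker RNA, and the part of those cells was not tested. Serpine2, protease nexin-1, had 9 and 7 counts against 18 and 17 and did not pass (edgeR adjusted p = 0.0976). Serpini1, neuroserpin, had 82 and 85 counts against 76 and 68 (adjusted p = 0.544). In the Serpina3 cluster, Serpina3c had 5 and 12 counts in WT and 0 in both libraries under the P65KO label, which is at least 5.54-fold lower against a floor of 3 counts over the group, and it did not pass the low-count filter.

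**Figure D4:**
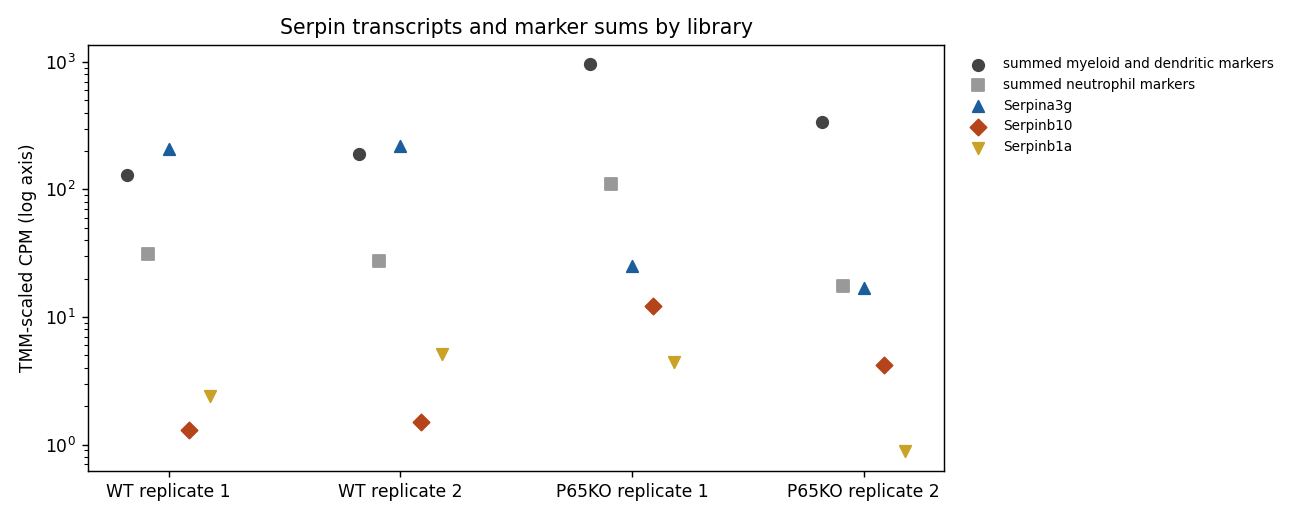
TMM-scaled CPM in each library, on a log axis, of Serpina3g, Serpinb10 and Serpinb1a beside the summed myeloid and dendritic markers and the summed neutrophil markers. P65KO-labelled replicate 1 had the highest Serpinb10 and the highest of both marker sums, while Serpina3g was low in both P65KO-labelled libraries.

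The proteases listed as possible serpin targets, mainly granzymes, cathepsins and clotting proteases, moved in both directions. Of 39 listed genes, 28 had counts and 15 were tested. Of these, 3 rose, 4 fell and 8 did not pass, beside 9.0% higher and 11.7% lower over all tested genes. Their median log2 difference was -0.11, beside 0.00 over all tested genes. Ctsb, one of the cathepsins that Serpina3g inhibits, was abundant, with 3360 and 3459 counts in WT and 2296 and 2120 in the P65KO-labelled libraries. It fell by 0.59 ± 0.09 on the log2 scale (SE, adjusted p of the edgeR quasi-likelihood test with Benjamini-Hochberg adjustment = 5.00e-04), lower in 2 of 2 P65KO-labelled libraries. Gzmb, the granzyme that Serpinb9 inhibits, had 76 and 116 counts in the WT libraries against 31 and 20 in the P65KO-labelled ones. It fell by 1.87 ± 0.28 (edgeR adjusted p = 5.21e-04), although the adjusted p was 0.0530 without WT replicate 2. Both of these proteases were lower under the P65KO label, whereas the cathepsin genes Ctsl and Ctsh, given below, were not.

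Of the other known targets, Gzma and Ctsl were tested and did not pass. Gzma, the target of Serpinb6b, had 53 and 80 counts in the WT libraries against 70 and 49 in the P65KO-labelled ones, with overlapping groups (log2 difference -0.13, edgeR adjusted p = 0.781), and its sign turned to 0.20 without WT replicate 2 and to 0.10 without P65KO-labelled replicate 2. Ctsl, cathepsin L, had 52 and 59 counts against 58 and 66 (0.19, adjusted p = 0.592). The neutrophil proteases that Serpinb1a inhibits were near or at the floor. Elane had 1 and 0 counts against 5 and 1, Prtn3 had 3 and 1 against 2 and 1, and Ctsg had 0 throughout. F2, prothrombin, the precursor of the protease that antithrombin inhibits, also had 0 counts in all 4 libraries.

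Ctsh, the lysosomal aminopeptidase cathepsin H, rose most among the tested proteases, from 18 and 25 counts to 193 and 104 (log2 difference 2.81 ± 0.31, SE, adjusted p of the edgeR quasi-likelihood test with Benjamini-Hochberg adjustment = 4.84e-05). Ctsf, cathepsin F, fell from 18 and 23 counts to 3 and 1 (-3.25, adjusted p = 0.00251, but 0.0539 without WT replicate 2). St14, the membrane protease matriptase, fell from 81 and 128 counts to 38 and 22 (-1.76, adjusted p = 9.30e-04, but 0.0750 without WT replicate 2). These proteases span lysosomal and cell-surface enzymes. Gzmc, a granzyme, rose from 5 and 11 counts to 19 and 32 (1.69, adjusted p = 0.0271), with adjusted p = 0.226 without WT replicate 1, 0.0796 without WT replicate 2, 0.148 without P65KO-labelled replicate 2 and 0.150 with DESeq2. Ctsc, the cathepsin that activates granzymes, rose by 0.37 (adjusted p = 0.0138), and its adjusted p was 0.0628 to 0.101 when any of the 4 libraries was left out and 0.0656 with DESeq2. The myeloid markers given above were higher in the same libraries as Ctsh, and their part in its difference was not tested.

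Protease inhibitors of other families also divided. Of 27 listed genes, 17 had counts and 14 were tested. Of these, 3 rose, 5 fell and 6 did not pass, beside 9.0% higher and 11.7% lower over all tested genes. Their median log2 difference was -0.22. Cst7, cystatin F, an inhibitor of lysosomal cathepsins in lymphocytes, had 751 and 789 counts in the WT libraries against 212 and 159 in the P65KO-labelled ones. It fell by 2.02 ± 0.12 on the log2 scale (SE, adjusted p of the edgeR quasi-likelihood test with Benjamini-Hochberg adjustment = 3.68e-07) and was lower in 2 of 2 P65KO-labelled libraries. Tfpi, the inhibitor of the tissue factor pathway of clotting, fell from 62 and 63 counts to 16 and 13 (-2.07 ± 0.29, adjusted p = 3.23e-04). Ctla2a, an inhibitor of cathepsin L, fell from 53 and 112 counts to 25 and 12 (-2.12, adjusted p = 0.00232, but 0.116 without WT replicate 2). These are inhibitors of cysteine and clotting proteases, and each was lower in both P65KO-labelled libraries.

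Ctla2b, a close relative of Ctla2a, fell from 12 and 17 counts to 4 and 0 (-2.75, edgeR adjusted p = 0.0271), a call lost on leaving out WT replicate 1 (0.129), WT replicate 2 (0.213) or, under the P65KO label, replicate 2 (0.0963). Timp2, a tissue inhibitor of metalloproteinases, fell by 0.44 (adjusted p = 0.00528), with 0.0674 without WT replicate 1, 0.0540 without WT replicate 2 and 0.0709 without P65KO-labelled replicate 1. Itih5, of the inter-alpha-trypsin inhibitor heavy chains, rose from 328 and 198 counts to 434 and 475 (0.82, adjusted p = 0.00534, but 0.0585 without WT replicate 2). Of these 3 genes, Ctla2b and Timp2 were lower and Itih5 higher under the P65KO label. Spint1, an inhibitor of membrane serine proteases such as matriptase, rose from 4 and 7 counts to 36 and 18 (2.30, adjusted p = 0.00759), a call lost on leaving out WT replicate 1 (0.133), WT replicate 2 (0.0757) or, under the P65KO label, replicate 1 (0.0571). Slpi, a secreted inhibitor of leukocyte proteases, rose from 16 and 9 counts to 61 and 19 (1.70, adjusted p = 0.0376), a call lost on leaving out WT replicate 1 (0.179), WT replicate 2 (0.330) or, under the P65KO label, replicate 1 (0.440, log2 difference 0.63). Spint1 and Slpi were highest in the library with most myeloid marker RNA, whose part in them was not tested.

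Receptors that bind serpins or clear their complexes were listed as 11 genes, of which 9 had counts and 8 were tested. Of these, 2 rose, 1 fell and 5 did not pass, beside 9.0% higher and 11.7% lower over all tested genes. Their median log2 difference was -0.02. Sdc4, a heparan sulfate proteoglycan of the kind that binds antithrombin, fell from 154 and 141 counts to 48 and 59 (-1.43 ± 0.18, SE, edgeR quasi-likelihood test with Benjamini-Hochberg adjustment, adjusted p = 1.15e-04). Lrp1, which clears complexes of serpins with proteases, rose from 21 and 27 counts to 93 and 58 (1.68 ± 0.30, adjusted p = 0.00152), with 0.0796 without WT replicate 1 and 0.0509 without WT replicate 2. Lrp1, too, was highest in P65KO-labelled replicate 1, the library with most myeloid marker RNA, and the part of those cells was not tested. Pnpla2, described as a receptor of pigment epithelium-derived factor, had 373 and 350 counts against 336 and 318 and did not pass (-0.11, adjusted p = 0.497).

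**Figure D5:**
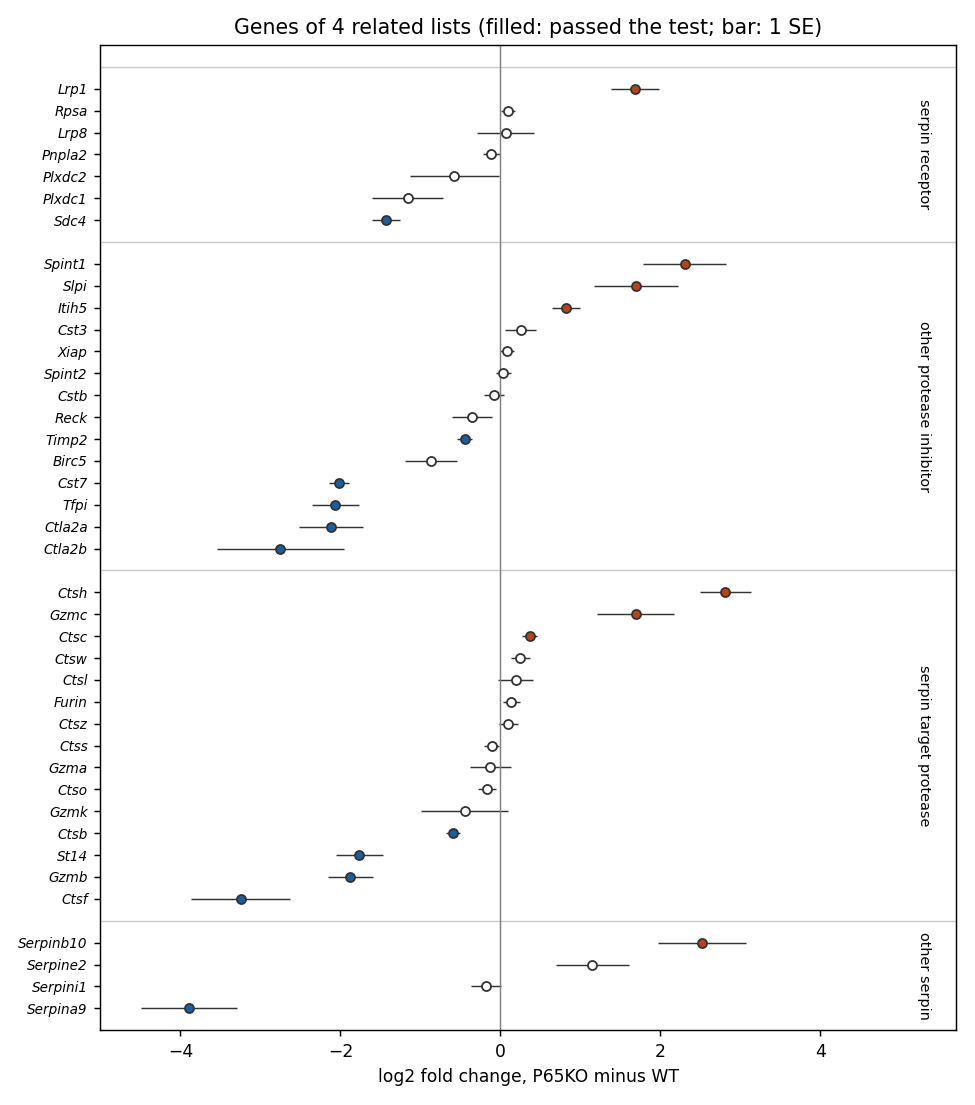
Log2 differences, P65KO-labelled minus WT, of tested genes of 4 related lists, with bars of 1 SE and filled points for genes that passed the test. Each list holds genes on both sides of 0, from Serpina9 at -3.89 to Ctsh at 2.81.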

How the data were processed

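RNA sequencing libraries of Treg cells, 2 WT and 2 P65KO, were grouped by their titles. The authors deposited a table of raw counts by Entrez gene and a log2 RPKM value per gene and library, which equalled the log2 of the count plus 0.5 over gene length and library total. The submitters' processing notes name Subread, featureCounts, limma and GRCm38 (mm10); versions, roles, annotation, strand and multi-match settings were not given in the sources used here. No row lacked an identifier, and 571 of 27179 genes lacked a symbol and were kept.

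Counts of genes passing filterByExpr were scaled by TMM and compared with the two-sided quasi-likelihood test of edgeR 4.0.16 in R 4.3.3, with Benjamini-Hochberg adjustment over 11172 genes and a threshold of 0.05. The fit was tested on simulated data. The spread between replicates exceeded counting noise, with a chi-square over its degrees of freedom of 2.96 for WT and of 3.37 for P65KO. Reads carry no molecular identifiers, so intervals and floors describe counting error alone. Alternatives were RLE scaling, no low-count filter, DESeq2 1.42.0, limma-voom (limma 3.58.1), each library left out and replicate blocks. Promoters came from RefSeq (GRCm38.p6) and transcripts from GENCODE M21, searched with exact stretches and aligned with Biopython 1.88.

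The serpin genes and all lists were chosen with earlier results of these data known. Named genes are the 10 serpin genes, each gene of another list that passed the threshold (1 receptor gene is not reported here), and the known targets Gzma, Gzmb, Ctsb, Ctsl, Ctsg, Elane, Prtn3 and F2. Other genes in the text, such as Serpina3c, Serpine2, Serpini1, Pnpla2 and the overlapping neighbours, were added after their values were seen.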

Additional observations from a re-analysis of the deposited data

How the results depend on the processing

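Scaling by RLE, limma-voom and replicate blocks kept every count of called genes within 1.5 times the reported one, and no scaling turned the sign of a serpin gene. Without the filter on low counts, 771 genes were called over the table, and DESeq2 called 1318. Without the filter, calls numbered 1 among the other serpin genes, 3 among target proteases and 2 among other protease inhibitors. With 1 library left out, the lone sample of a group being assumed to vary like the other group, calls ran from 916 to 1676 over the table, from 1 to 2 among other serpin genes, from 2 to 6 among target proteases, from 2 to 8 among other inhibitors and from 2 to 3 among receptors. Among single genes, the calls of Serpinb10, Gzmb, Gzmc, Ctsc, St14, Timp2, Ctla2a, Ctla2b, Itih5, Spint1, Slpi and Lrp1 were lost with no filter (edgeR adjusted p from 0.0539 to 0.243), those of Gzmc, Ctsc, Ctla2b and Slpi with DESeq2, and that of Slpi with limma-voom. With 1 library left out, Serpinb1a ran from -2.06 to 0.22 and Gzma from -0.40 to 0.20 on the log2 scale. Serpina9, Ctsb, Ctsh, Cst7, Tfpi and Sdc4 stayed past the threshold in 10 of 10 alternatives.

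The replicate numbers are not stated to mark a shared animal or day. The differences of replicate 1 minus replicate 2 in WT correlated with those under the P65KO label at -0.14 over 11172 genes. A replicate block gave 2319 calls over the table. The crossed pairing, chosen after seeing the data, gave 2973. Depth limits Serpina3h, Serpina3i and, in the P65KO-labelled libraries, Serpina3f, Serpinc1 and Serpinf1.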
